A study of Mus musculus with 11 samples.

Results

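The ligand *Gas6*, its relative *Pros1*, the TAM receptors *Axl*, *Mertk* and *Tyro3*, and 3 further molecules that recognize dying cells, *Mfge8*, *Timd4* and *Stab1*, were followed in aged renal cortex with and without tubular *Cpt1a*. These 8 genes were taken by name from the 53801 genes of the deposited count table, with the raw read counts of all 11 mice. They were chosen with earlier results of the same genotype comparison known. Their differences between genotypes are therefore given as a description, with no p-value. How many passed a threshold is counted beside the share of all genes that did, is counted again under other settings, and supports nothing.

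The 6 Cpt1aCKO mice carried floxed *Cpt1a* with Pax8-rTTA and tetO-Cre, a doxycycline-inducible Cre under the control of *Pax8*, which is active along the renal tubule. The other 5 were floxed controls, for which the labels give no further allele. All 11 were males on a mixed background that received doxycycline for 3 weeks, given in the labels at an age of 5 to 8 weeks, and all were aged for 2 years. Each mouse gave 1 library of polyadenylated RNA from cortical tissue. Mice are numbered here within each genotype in the order of deposition, and these numbers pair no mice. Deletion was limited to Pax8-expressing cells, so macrophages, endothelium and stroma were not targeted.

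Efferocytosis is the engulfment of dying cells, which display phosphatidylserine on their surface. GAS6 and protein S, the product of *Pros1*, are vitamin K-dependent proteins that bind phosphatidylserine at one end and a TAM receptor tyrosine kinase at the other. GAS6 engages all of the TAM receptors, with the highest affinity for AXL, whereas protein S acts on TYRO3 and MERTK. MFG-E8 bridges phosphatidylserine to integrins, TIM-4 (*Timd4*) binds phosphatidylserine directly on resident macrophages, and stabilin-1 (*Stab1*) is a scavenger receptor of macrophages and sinusoidal endothelium. In the kidney, tubule cells as well as macrophages are known to clear dying cells.

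In the GENCODE M21 annotation of GRCm38, the ligand genes are *Gas6* (ENSMUSG00000031451) at chr8:13465374-13494490 on the minus strand and *Pros1* (ENSMUSG00000022912) at chr16:62854307-62929346 on the plus strand. The receptor genes are *Axl* (ENSMUSG00000002602) at chr7:25757273-25788705 on the minus strand, and *Mertk* (ENSMUSG00000014361) at chr2:128698956-128802894 and *Tyro3* (ENSMUSG00000027298) at chr2:119797733-119818104, both on the plus strand. *Mfge8* (ENSMUSG00000030605) is at chr7:79133768-79149060 and *Stab1* (ENSMUSG00000042286) at chr14:31139013-31168641, both on the minus strand, and *Timd4* (ENSMUSG00000055546) is at chr11:46810800-46844332 on the plus strand. Their exons together cover from 2173 bases in *Timd4* to 10288 bases in *Stab1*, and reads were counted per gene.

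The 250 bases before the RefSeq start of the 2 TAM ligands are shown because the ligands share a protein architecture and a receptor family, while their transcript levels, given further on, lay far apart. The sequences are those of RefSeq on GRCm38.p6, 5′ to 3′ on the gene's strand, and capitals mark the GC box GGGCGG on either strand (CCGCCC on the other). The *Gas6* window is chr8:13494536-13494785 on the minus strand, and the *Pros1* window is chr16:62854057-62854306 on the plus strand.
Gas6: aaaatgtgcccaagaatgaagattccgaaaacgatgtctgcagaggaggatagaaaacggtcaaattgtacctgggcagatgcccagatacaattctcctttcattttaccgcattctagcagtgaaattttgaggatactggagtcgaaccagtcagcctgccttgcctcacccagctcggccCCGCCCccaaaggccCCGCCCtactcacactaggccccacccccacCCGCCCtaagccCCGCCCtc
Pros1: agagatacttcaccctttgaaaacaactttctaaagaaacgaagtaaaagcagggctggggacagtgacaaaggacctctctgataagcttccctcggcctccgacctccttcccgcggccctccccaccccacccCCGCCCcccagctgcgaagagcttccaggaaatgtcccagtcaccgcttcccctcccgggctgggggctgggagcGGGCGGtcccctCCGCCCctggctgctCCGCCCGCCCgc
The *Gas6* window held 4 GC boxes, all as CCGCCC, and 10 CpG. The *Pros1* window held 5 GC boxes, of which the last 2 overlap in CCGCCCGCCC, and 15 CpG. Over all 32851 promoter windows of the same length, 32.7% held at least 1 GC box and the median CpG number was 6. A GC box was found in 6 of the 8 genes, with 1 in *Axl*, 3 in *Mertk*, 3 in *Tyro3* and 4 in *Mfge8*, and with 0 in *Timd4* and *Stab1*. The windows follow RefSeq starts, and that of *Tyro3*, chr2:119799264-119799513, lies inside the GENCODE gene, which starts at 119797733. *Tyro3* had the most CpG of the 8 windows, 24, and *Timd4* the fewest, 4. These are matches of letters, and no binding was measured.

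Reads counted on genes ranged from 39628721 to 56241595 in floxed control mice and from 43027049 to 57459929 in Cpt1aCKO mice. As to the genotype labels, the level of the deleted gene *Cpt1a*, in counts scaled by TMM to a common library size (CPM), was 418 to 548 CPM in the floxed controls, and every Cpt1aCKO mouse lay far lower, between 38.4 and 97.3 CPM. Cpt1aCKO mouse 4 stood apart from the other libraries, with 158 CPM of reads on olfactory receptor genes, against 8.89 to 21.6 CPM in the other Cpt1aCKO mice, while the floxed controls had 10.9 to 40.8 CPM. Proximal tubule markers summed to 33580 to 40980 CPM in floxed control mice and 29282 to 39104 CPM in Cpt1aCKO mice, with the phosphate transporter gene *Slc34a1* the highest. *Adipoq*, which defines fat, had 0 reads in all 11 libraries. In bulk tissue, fewer cells of a type and less RNA per cell cannot be told apart.

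*Gas6* was the most abundant of the 8 genes and the only one whose groups did not overlap. In floxed control mice 1 to 5 it was at 540, 505, 527, 534 and 488 CPM. In Cpt1aCKO mice 1 to 6 it was at 678, 643, 592, 577, 636 and 575 CPM. All 6 Cpt1aCKO mice lay above the highest floxed control mouse. The group means were 519 ± 21.7 CPM (SD, n = 5) and 617 ± 41.8 CPM (SD, n = 6), a ratio of 1.19 and a log2 fold change of 0.25 with a standard error of 0.063. The counts behind these levels were 21834 to 37670 reads per mouse. With each mouse left out in turn, the log2 fold change stayed between 0.22 and 0.27. The mice carry label numbers of an S2-series and an S7-series, whose meaning is not given. Since the groups of *Gas6* did not overlap over all mice, they could not overlap within either series. The ranges by series are therefore a description and add no support. In the S2-series *Gas6* was at 488 to 540 CPM in 3 floxed control mice and 575 to 678 CPM in 4 Cpt1aCKO mice. In the S7-series it was at 505 to 527 CPM in 2 floxed control mice and 577 to 636 CPM in 2 Cpt1aCKO mice. In the annotation *Gas6* overlaps *Tmem255b* on the other strand, and the strand setting of the counting is not given, so reads of the 2 genes may not be fully separated.

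*Pros1*, the second TAM ligand and better known as an anticoagulant, was at 21.2, 24.9, 25.1, 20.7 and 26.1 CPM in floxed control mice 1 to 5. It was at 23.8, 32.2, 30.7, 23.2, 25.8 and 22.2 CPM in Cpt1aCKO mice 1 to 6. The groups overlapped, with Cpt1aCKO mice 2 and 3 above the range of the others. The means were 23.6 ± 2.47 CPM (SD, n = 5) and 26.3 ± 4.18 CPM (SD, n = 6), and the log2 fold change was 0.16 with a standard error of 0.113. Without Cpt1aCKO mouse 2 it was 0.092. Per kilobase of exon, the ratio of *Gas6* to *Pros1* was 35.7 ± 5.14 (SD, n = 5) in floxed control mice and 38.3 ± 5.70 (SD, n = 6) in Cpt1aCKO mice, and the 2 ranges overlapped.

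**Figure D1:**
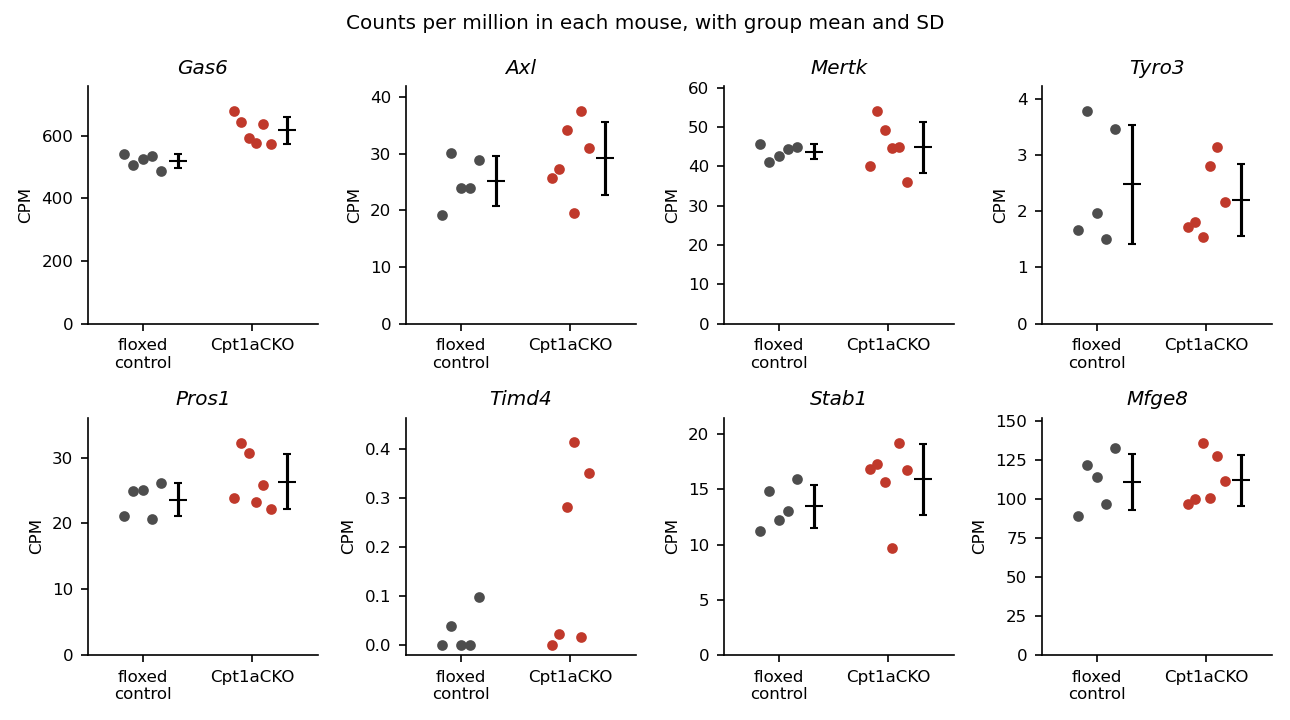
CPM after TMM scaling (y axis, linear) of the 8 genes in each of 5 floxed control mice (gray) and 6 Cpt1aCKO mice (red), with the group mean and SD beside the points except for *Timd4*, which had 0 to 20 reads per mouse. *Gas6* separates the groups, with 488 to 540 CPM against 575 to 678 CPM, and the groups of every other gene overlap.

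Of the receptors, *Axl*, the TAM receptor commonly induced in inflamed tissue, was at 19.1, 30.1, 24.0, 24.0 and 29.0 CPM in floxed control mice 1 to 5. It was at 25.8, 27.3, 34.2, 19.5, 37.5 and 31.0 CPM in Cpt1aCKO mice 1 to 6. Of the Cpt1aCKO mice, 3 of 6 lay above every floxed control mouse and Cpt1aCKO mouse 4 lay near the lowest of them. The means were 25.2 ± 4.42 CPM (SD, n = 5) and 29.2 ± 6.43 CPM (SD, n = 6), with a log2 fold change of 0.21 and a standard error of 0.157. It was 0.13 without Cpt1aCKO mouse 5 and also 0.13 without floxed control mouse 1, and 0.30 without Cpt1aCKO mouse 4.

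*Mertk*, the TAM receptor that macrophages use for engulfment, was at 45.7, 41.2, 42.6, 44.3 and 45.0 CPM in floxed control mice 1 to 5. It was at 40.2, 54.0, 49.2, 44.7, 44.9 and 35.9 CPM in Cpt1aCKO mice 1 to 6, so that these mice lay on both sides of the floxed control range. The means, 43.7 ± 1.85 CPM (SD, n = 5) and 44.8 ± 6.38 CPM (SD, n = 6), differed by a log2 fold change of 0.03 with a standard error of 0.092, whose sign turned in 1 of 19 other settings, to -0.024 without Cpt1aCKO mouse 2. The coefficient of variation of *Mertk* was 4.24% in floxed control mice and 14.2% in Cpt1aCKO mice, whereas that of *Gas6* was 4.18% and 6.79%. *Mertk* overlaps the annotated genes *Gm14011* and *Gm23172*.

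*Tyro3*, the TAM receptor best known from the nervous system, was at 1.66, 3.77, 1.98, 1.51 and 3.46 CPM in floxed control mice 1 to 5. It was at 1.72, 1.81, 1.54, 2.81, 3.14 and 2.16 CPM in Cpt1aCKO mice 1 to 6, all within the floxed control range. The means were 2.48 ± 1.06 CPM (SD, n = 5) and 2.20 ± 0.645 CPM (SD, n = 6), and the log2 fold change of -0.17 was smaller than its standard error of 0.29. Without floxed control mouse 2 its sign turned, to 0.032, and without floxed control mouse 5 it was -0.018. At this level its coefficient of variation was 42.9% and 29.4%, the widest of the 7 genes with enough reads to be tested.

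*Mfge8*, the integrin bridge, was at 89.2, 122, 114, 96.9 and 133 CPM in floxed control mice 1 to 5 and at 96.8, 100, 136, 101, 128 and 112 CPM in Cpt1aCKO mice 1 to 6. The ranges nearly coincided. The means were 111 ± 18.0 CPM (SD, n = 5) and 112 ± 16.3 CPM (SD, n = 6), with a log2 fold change of 0.01 and a standard error of 0.116, whose sign turned in 4 of 19 other settings, without floxed control mouse 1 or 4 or Cpt1aCKO mouse 3 or 5.

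*Stab1*, the scavenger receptor, was at 11.3, 14.8, 12.2, 13.0 and 15.9 CPM in floxed control mice 1 to 5. It was at 16.8, 17.2, 15.7, 9.73, 19.2 and 16.7 CPM in Cpt1aCKO mice 1 to 6. Of these, 4 of 6 lay above every floxed control mouse, and Cpt1aCKO mouse 4 lay below all 5 of them. The means were 13.4 ± 1.91 CPM (SD, n = 5) and 15.9 ± 3.23 CPM (SD, n = 6), and the log2 fold change was 0.24 with a standard error of 0.153. Without Cpt1aCKO mouse 4 it was 0.35. That mouse also had the lowest summed endothelial markers, 430 CPM against 565 to 846 CPM in the other Cpt1aCKO mice, and the part of this in the *Stab1* level was not tested. *Stab1* overlaps *Nt5dc2* on the other strand.

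*Timd4*, the phosphatidylserine receptor of resident macrophages, had too few reads to be tested. It had 0, 2, 0, 0 and 5 reads in floxed control mice 1 to 5 and 0, 1, 15, 18, 1 and 20 reads in Cpt1aCKO mice 1 to 6, which makes 7 against 55 reads in all. The reads came almost wholly from Cpt1aCKO mice 3, 4 and 6, and the other 3 Cpt1aCKO mice had no more than the floxed control mice, so no fold is given. Mouse 3 also had the highest summed lymphocyte markers, 86.9 CPM against 13.0 to 45.2 CPM in the other 10 mice, and mouse 4 the highest olfactory receptor reads. Mouse 6 had the next highest summed lymphocyte markers, 45.2 CPM, whereas mouse 4 had 26.3 CPM. The olfactory receptor reads of mouse 6, 10.8 CPM, lay within the range of the other mice. The part of these in the *Timd4* reads was not tested.

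The 7 tested genes are read against all 18160 genes tested. With edgeR's quasi-likelihood test and Benjamini-Hochberg adjustment, 0 of 7 passed an adjusted p of 0.05, where 0.0165% of all genes did (0.011% higher and 0.00551% lower in Cpt1aCKO mice), and 1 of 7 passed an unadjusted p of 0.05, where 5.93% did. With DESeq2, 1 of 7 passed an adjusted p of 0.05, where 0.275% of all genes did (0.174% higher and 0.101% lower). The groups did not overlap for 1 of 7, against 0.611% of all genes (0.341% higher and 0.27% lower). In each case the gene was *Gas6*, and since the genes were chosen on this contrast nothing is read from these counts. The log2 fold change was positive for 6 of 7 genes and for 51.4% of all genes, whose median was 0.006.

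Levels of different genes were compared per kilobase of annotated exon. *Gas6* had 204 ± 8.50 CPM per kilobase (SD, n = 5) in floxed control mice, which placed it at rank 290 of 18141 tested genes. *Mfge8* followed with 23.7 ± 3.84, *Mertk* with 10.1 ± 0.427, *Pros1* with 5.78 ± 0.605, *Axl* with 5.02 ± 0.878, *Stab1* with 1.31 ± 0.186 and *Tyro3* with 0.399 ± 0.171, all in CPM per kilobase (SD, n = 5). *Timd4* came last. Among neighbours in this order only *Pros1* and *Axl* overlapped between mice, in both genotypes, so *Gas6* was separated from the next gene and *Mertk* was the highest TAM receptor in every mouse. The ratio of *Mertk* to *Axl* per kilobase was 2.07 ± 0.448 (SD, n = 5) in floxed control mice and 1.86 ± 0.52 (SD, n = 6) in Cpt1aCKO mice, and the ratio of *Gas6* to *Axl* was 41.9 ± 9.34 and 43.5 ± 10.3, each with overlapping ranges.

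The other genes of the pathway were listed by their roles, 92 genes in all, and 87 of them were kept by the filter on low counts. The list was drawn up with earlier results of these data known. Its counts and shares are therefore a description and support nothing. At an adjusted p of 0.05 from edgeR, 0 genes passed, and by DESeq2 also 0. At an unadjusted p of 0.05, 9 of 87 were higher in Cpt1aCKO mice (10.3%, against 3.35% of all genes tested) and 2 of 87 were lower (2.30%, against 2.57%). The number higher depends on single mice, with 5 without Cpt1aCKO mouse 3 and 14 without Cpt1aCKO mouse 6. The log2 fold change was positive for 64 of 87 genes, against 51.4% of all genes, with a median of 0.072, against 0.006. None of the values that follow passed the adjustment, whose edgeR adjusted p lay between 0.53 and 0.83 for the 11 genes at an unadjusted p of 0.05.

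**Figure D2:**
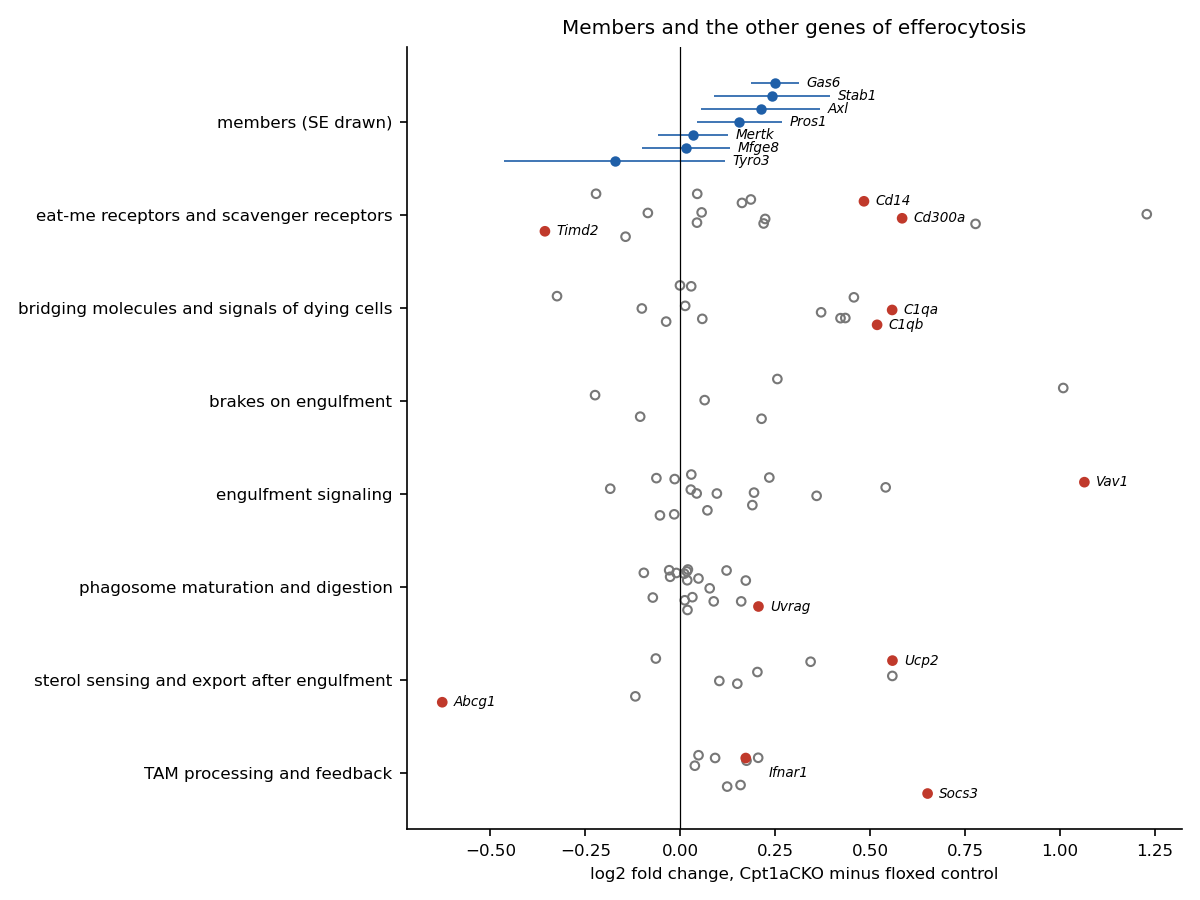
Log2 fold change, Cpt1aCKO minus floxed control (x axis), of the 7 tested genes with their standard errors (blue) and of the 87 tested pathway genes by role (circles), with the 11 genes at an unadjusted p of 0.05 filled in red and named. Vertical scatter within a role only separates points. Of the 11 named genes, 9 lie to the right of 0 and *Timd2* and *Abcg1* to the left.

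Among bridging molecules and signals of dying cells, 2 of the 3 chains of C1q, the complement component that coats dying cells, passed an unadjusted p of 0.05. They were the only 2 of 13 tested genes of the role (15.4%), both higher, against 3.35% of all genes. *C1qa* was at 12.2 ± 2.26 CPM (SD, n = 5) in floxed control mice and 18.0 ± 3.68 CPM (SD, n = 6) in Cpt1aCKO mice, with no overlap between the groups and a log2 fold change of 0.56. Of all genes, 0.341% were higher in Cpt1aCKO mice with no overlap. *C1qb* was at 25.2 ± 4.76 CPM (SD, n = 5) and 36.2 ± 9.23 CPM (SD, n = 6), with overlapping groups. *C1qc*, the third chain, did not pass, with 12.6 to 17.8 CPM in floxed control mice and 14.7 to 31.8 CPM in Cpt1aCKO mice, and 3 of 6 Cpt1aCKO mice lay above every floxed control mouse. *Calr*, whose product marks dying cells for engulfment and is the most abundant of the role, was at 603 ± 76.0 CPM (SD, n = 5) and 603 ± 35.2 CPM (SD, n = 6).

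Among the 15 tested receptors and scavenger receptors, an unadjusted p of 0.05 was passed by 2 with higher and 1 with lower levels in Cpt1aCKO mice. These are 13.3% and 6.67%, against 3.35% and 2.57% of all genes. *Cd300a*, a phosphatidylserine receptor of myeloid cells, was at 1.04 ± 0.143 CPM (SD, n = 5) and 1.55 ± 0.354 CPM (SD, n = 6). *Cd14*, a co-receptor for bacterial lipid that also tethers dying cells, was at 11.3 ± 3.56 CPM (SD, n = 5) and 15.8 ± 2.00 CPM (SD, n = 6). *Timd2*, a rodent relative of *Timd4*, was at 79.5 ± 13.6 CPM (SD, n = 5) and 62.1 ± 13.6 CPM (SD, n = 6). *Cd36*, a fatty acid and scavenger receptor and the most abundant of the role, was at 338 ± 54.0 CPM (SD, n = 5) and 306 ± 43.8 CPM (SD, n = 6). *Havcr1*, which encodes KIM-1, the phosphatidylserine receptor of injured tubule cells, is named here after its values were seen. It ranged from 0.792 to 8.29 CPM in floxed control mice and from 2.99 to 17.1 CPM in Cpt1aCKO mice, with overlapping groups and an unadjusted p over 0.05. *Adgrb1*, *Cd300lb*, *Megf10*, *Olr1* and *Marco* had too few reads.

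None of the 6 brakes on engulfment passed an unadjusted p of 0.05, where 5.93% of all genes did. The most abundant of them, *Cd47*, the surface signal that spares living cells, had a mean of 137 CPM (range 125 to 146, n = 5) in floxed control mice and 128 CPM (range 108 to 152, n = 6) in Cpt1aCKO mice. Of 16 engulfment signaling genes, 1 passed that threshold, with higher levels in Cpt1aCKO mice (6.25%, against 3.35% of all genes). *Vav1*, an exchange factor of blood cells that activates RAC, was at 1.15 ± 0.669 CPM (SD, n = 5) and 2.42 ± 0.903 CPM (SD, n = 6). *Cdc42*, a GTPase of the cytoskeleton and the most abundant of the role, was at 339 ± 17.7 CPM (SD, n = 5) and 336 ± 18.4 CPM (SD, n = 6). Of 19 genes of phagosome maturation, *Uvrag* alone passed, at 29.4 ± 1.76 CPM (SD, n = 5) and 33.9 ± 3.98 CPM (SD, n = 6). This is 5.26%, against 3.35% of all genes, and 1 gene sets neither of these roles apart from all genes. The lysosomal membrane gene *Lamp1* was at 1480 ± 38.1 CPM (SD, n = 5) and 1499 ± 71.0 CPM (SD, n = 6).

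Engulfed cells deliver cholesterol, and of the 9 genes for its sensing and export and for the mitochondrial response, an unadjusted p of 0.05 was passed by 1 in each direction. This is 11.1% each, against 3.35% of all genes higher and 2.57% lower. *Ucp2*, the mitochondrial carrier known to sustain engulfment in macrophages, was the most abundant of the role, at 156 ± 39.0 CPM (SD, n = 5) and 230 ± 42.5 CPM (SD, n = 6). *Abcg1*, a cholesterol exporter, was at 6.15 ± 2.53 CPM (SD, n = 5) and 3.98 ± 0.769 CPM (SD, n = 6), and the groups of both genes overlapped. Of the 9 genes of TAM processing and feedback, which cover vitamin K-dependent carboxylation, receptor shedding and the cytokine brake, 2 passed that threshold, both higher. These are 22.2%, against 3.35% of all genes. *Socs3*, a feedback inhibitor of cytokine signaling, was at 2.59 ± 0.345 CPM (SD, n = 5) and 4.06 ± 1.80 CPM (SD, n = 6). *Ifnar1*, the interferon receptor subunit that TAM receptors use for this brake, was at 39.3 ± 3.13 CPM (SD, n = 5) and 44.2 ± 2.61 CPM (SD, n = 6). *Calu*, an inhibitor of the carboxylation system and the most abundant of the role, was at 84.7 ± 8.10 CPM (SD, n = 5) and 94.5 ± 11.8 CPM (SD, n = 6).

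Markers of the cells that could carry these transcripts were read in the same libraries. The marker lists were also chosen with earlier results of these data known, so their counts and shares between genotypes are a description. Of 23 tested macrophage markers, 6 (26.1%) passed an unadjusted p of 0.05, all higher in Cpt1aCKO mice, where 3.35% of all genes tested were higher and 2.57% lower. By edgeR and by DESeq2, 0 passed the adjustment. The log2 fold change was positive for 21 of 23, against 51.4% of all genes, and the median was 0.41, against 0.006. The 6 were *Ctss*, *Laptm5*, *Fcer1g*, *Trem2*, *Cd74* and *Clec7a*, and without floxed control mouse 3 the number was 3. Summed macrophage markers, led by *Cd74*, were at 418 to 724 CPM in floxed control mice and 567 to 966 CPM in Cpt1aCKO mice. Endothelial markers, led by *Plvap*, summed to 493 to 716 CPM and 430 to 846 CPM, and stromal and mural markers, led by *Acta2*, to 168 to 309 CPM and 193 to 324 CPM. At an unadjusted p of 0.05, *Sox17* of 14 endothelial markers (7.14%, against 2.57% of all genes) was lower and 0 of 14 stromal and mural markers passed. None of the other lists had a gene past the edgeR adjustment. With DESeq2 *Miox* and *Cd4* passed, at adjusted p of 0.0379 and 0.0334, where 0.275% of all genes did. *Cd4* had only 12 to 129 reads per mouse. At an unadjusted p of 0.05, *Miox* of 12 proximal tubule markers (8.33%) was lower, as were *Umod*, *Slc12a3* and *Calb1* of 13 markers of the other nephron segments (23.1%), a list led by *Umod*, against the same 2.57% of all genes. *Cd4* of 10 lymphocyte markers, led by *Jchain*, was higher, against 3.35% of all genes. The groups of *Miox* and of *Cd4* did not overlap, which held for 0.611% of all genes. Of 3 tested liver and fat markers, led by *Ttr*, 0 passed. The part of these lists in the differences between genotypes was not tested.

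Whether the genes followed a cell type was read within genotype, with the genotype means subtracted, over all 11 mice. This uses variation between mice that did not choose the genes. Of 28 relations between the 7 tested genes and 4 marker lists, 0 passed a Benjamini-Hochberg adjusted p of 0.05 by a two-sided permutation test, with Pearson's r or with Spearman's rho, and 4 had an adjusted p of 0.0653 for Pearson's r. *Axl* and the stromal and mural markers had r = 0.82 (permutation p = 0.00386) and rho = 0.86 (permutation p = 0.00204). Without floxed control mouse 1 and Cpt1aCKO mouse 1, the farthest from the median of the markers, r was 0.86. *Mfge8* and the same markers had r = 0.81 (permutation p = 0.00568) and rho = 0.76 (permutation p = 0.0143), and r was 0.68 without the same mice. *Stab1* and the endothelial markers had r = 0.81 (permutation p = 0.00867) and rho = 0.85 (permutation p = 0.00468). *Axl* and the endothelial markers had r = 0.81 (permutation p = 0.00933) and rho = 0.78 (permutation p = 0.0103). Both endothelial relations were weaker without Cpt1aCKO mice 4 and 5, with r = 0.55 for *Stab1* and r = 0.54 for *Axl*.

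**Figure D3:**
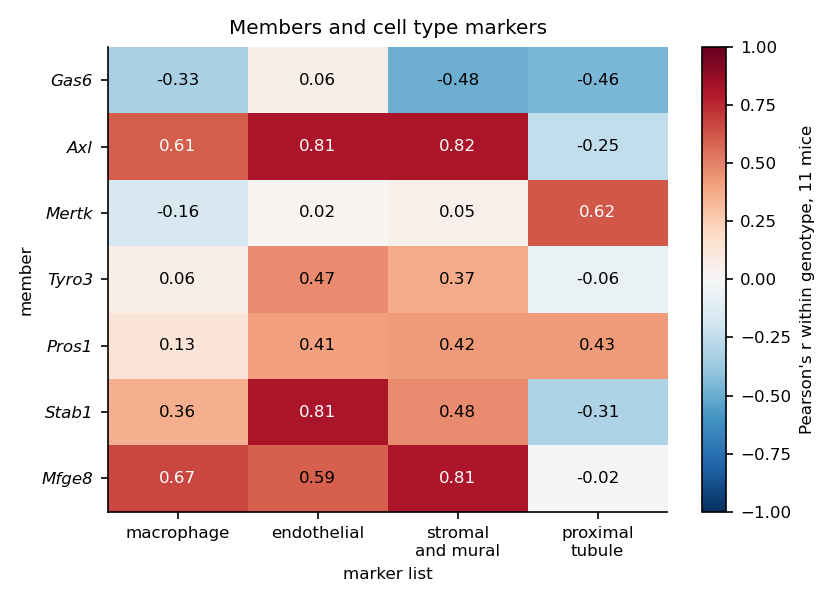
Pearson's r over 11 mice, with genotype means subtracted, between each of the 7 tested genes (rows) and the mean log2 CPM of 4 marker lists (columns), colored from -1 (blue) to 1 (red). The 4 highest values, 0.81 to 0.82, lie in the endothelial and the stromal and mural columns, and *Gas6* has -0.33 with the macrophage markers.

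No relation of *Gas6* to the macrophage markers was detected. Within genotype its r with them was -0.33 (permutation p = 0.408, adjusted p = 0.635) and its rho -0.28 (permutation p = 0.444), and r was -0.099 without Cpt1aCKO mice 2 and 3. With the stromal and mural markers *Gas6* had r = -0.48 (permutation test, adjusted p = 0.389). Its r was -0.46 (adjusted p = 0.508) with the proximal tubule markers and 0.061 with the endothelial markers. *Mertk*, the receptor of macrophage engulfment, had r = -0.16 (permutation p = 0.74) and rho = -0.036 (permutation p = 0.931) with the macrophage markers. Its highest value was r = 0.62 (permutation p = 0.141, adjusted p = 0.389) and rho = 0.72 (permutation p = 0.0479) with the proximal tubule markers. *Axl* and *Mfge8* had r = 0.61 and r = 0.67 with the macrophage markers, at adjusted p of 0.29 and 0.168 by the same permutation test. A p over the threshold in 11 mice does not show that a relation is absent.

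**Figure D4:**
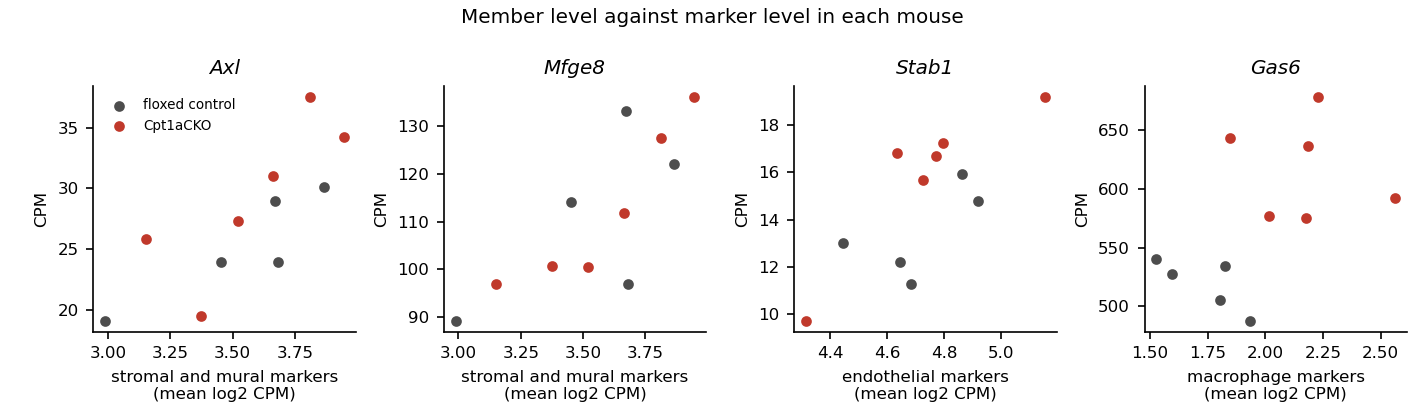
Level of *Axl*, *Mfge8*, *Stab1* and *Gas6* in each mouse (CPM, y axes not starting at 0) against the mean log2 CPM of the stromal and mural markers, the endothelial markers or the macrophage markers (x axis), for 5 floxed control mice (gray) and 6 Cpt1aCKO mice (red). *Axl* and *Mfge8* have r = 0.82 and r = 0.81 with the stromal and mural markers within genotype. Neither relation passed the adjusted threshold, with an adjusted p of 0.0653 by the permutation test. *Gas6* has r = -0.33 with the macrophage markers.

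The genes were also compared with each other in the same way, over 21 pairs, a comparison added after the data were seen. *Axl* and *Stab1* had r = 0.85 (permutation p = 0.00265, adjusted p = 0.0324) and rho = 0.71 (permutation p = 0.0204, adjusted p = 0.214). Without floxed control mouse 1 and Cpt1aCKO mouse 4, r was 0.57, and with each mouse left out in turn it lay between 0.73 and 0.90. *Axl* and *Mfge8* had r = 0.82 (permutation p = 0.00309, adjusted p = 0.0324) and rho = 0.82 (permutation p = 0.00456, adjusted p = 0.0958), with r = 0.76 without floxed control mouse 1 and Cpt1aCKO mouse 3 and 0.77 to 0.91 with each mouse left out. By Pearson's r both pairs passed the adjusted threshold, and by Spearman's rho neither did. No other pair passed, and *Gas6* and *Axl*, the ligand and its preferred receptor, had r = -0.16 (permutation p = 0.697) and rho = -0.25 (permutation p = 0.524).

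Of 13826 genes at a mean of at least 1 CPM, those most like each gene within genotype are given as a description, by Pearson's r over 11 mice. Each is the top of a search over 13826 genes in 11 mice. High values then arise without any relation, and none was tested. *Gas6* was most like *Trmt2a* (0.98), *Mysm1* (0.94) and *Ctdspl2* (0.94). *Axl* was most like *Cfap43* (0.98), *Mical1* (0.96) and *Bgn* (0.96), the last encoding a matrix proteoglycan. For *Mfge8* these were *Rcn3* (0.95), *Fam241a* (0.93) and *Csf1* (0.92), the last encoding the growth factor of macrophages. *Stab1* was most like *Gpc1* (0.94), *Peli1* (0.93) and *Sema3f* (0.92), and *Mertk* was most like *Gm6548* (0.94), *Zfp36l2* (0.90) and *Clock* (0.90), a core gene of the circadian clock. *Pros1* was most like *Pdlim5* (0.93), *Map3k11* (0.92) and *AC125311.2* (0.91), and *Tyro3* most like *Lgr6* (0.92), *P4ha2* (0.91) and *Tmem246* (0.90).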

How the data were processed

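RNA-Seq of renal cortex was analyzed in 11 mice, 1 library each. The libraries were made with a stranded kit. Low-quality reads were excluded, and the authors aligned the rest with STAR 2.7.3a and counted them with HTSeq, which gave the raw counts as deposited. The strand setting, build and annotation were not given in the sources read. Beside the counts, the tables also hold size-factor-normalized counts and the authors' DESeq2 fold changes and p-values, which were not used.

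Here, the raw counts were filtered with filterByExpr, TMM-scaled and fitted by robust quasi-likelihood in edgeR 4.0.16 under R 4.3.3, with Benjamini-Hochberg adjustment over 18160 genes. CPM are TMM-scaled, and log2 CPM used a prior count of 2. DESeq2 1.42.0, limma 3.58.1 (voom), other scalings and filters, the label number series as covariate and each mouse left out were alternatives. Relations across mice used 100000 permutations within genotype. Scripts were tested on simulated data. Positions and exon lengths are from GENCODE M21, in which 99.66% of the gene identifiers were found, and promoters from RefSeq, matched for 8 of 8 genes. Protein sequences were planned and are not analyzed here. *Itgam*, a name shared by more than 1 row, and *Vsig4*, with too few reads, were left out of the macrophage markers. Of the efferocytosis list, 1 gene is not reported here and was left out of its counts.

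The 8 genes and the lists were chosen with earlier results of these data known. Named were these 8, *Cpt1a*, of each role every gene at an unadjusted p of 0.05 and the most abundant gene, of each marker list the most abundant gene and defining markers at 0 reads, and the 3 genes most like each tested gene. Other genes are named where a count of 5 or fewer, or 6 macrophage markers, called for it. Nothing in the labels says whether the mice came from separate litters, and p-values measure only the spread between these mice.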

Additional observations from a re-analysis of the deposited data

Results flagged for a closer look

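*Stab1* in Cpt1aCKO mouse 4, at 9.73 CPM, was the lowest of its group, and its gap to the nearest mouse was 0.629 of the whole range of the 6 mice, which is past Dixon's critical value at the 95% level. Of 16 groups examined (8 genes in 2 genotypes), this was the only one, and chance alone flags about 5% of groups. The same library had the highest olfactory receptor reads (158 CPM) and the lowest summed endothelial markers (430 CPM).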

How the results depend on the processing

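Of 310 values recomputed under other settings, 19 moved past the limit set for them and 0 reversed among called values. The number of genes called higher in Cpt1aCKO mice at an adjusted p of 0.05 was 2 with edgeR, 31 with DESeq2, 1 with at least 10 reads required in every mouse and 1 with limma voom, and the number called lower was 1 with edgeR and 18 with DESeq2. Of the 7 tested genes, 0 passed the edgeR adjustment, where 0.0165% of all genes did, and 1 the DESeq2 adjustment, where 0.275% did. At an unadjusted p of 0.05, 1 passed with edgeR, where 5.93% of all genes did. Without a filter on low counts 2 of the followed genes passed, and the share of all genes is not given for that setting. Nothing is read from the counts of the followed genes, here or with mice left out. Of the efferocytosis list, 9 were higher at an unadjusted p of 0.05, and 14 when counts were scaled by library size without TMM, which moved the median log2 fold change of all genes from 0.006 to 0.034. With each of the 11 mice left out in turn, the genes called higher stayed at 2 and those called lower at 1 to 2, the list genes higher at an unadjusted p of 0.05 at 5 to 14 and lower at 1 to 3, the followed genes at 1 to 3 (3 without Cpt1aCKO mouse 4), and the macrophage markers at 3 to 9. The list genes lower were 2 with all mice and 1 without floxed control mouse 1, 2 or 5 or Cpt1aCKO mouse 1, 2, 3 or 5. The log2 fold change of *Gas6* was 0.22 to 0.28 over all 19 settings, and the sign of *Mertk* and *Tyro3* turned in 1 of 19 and that of *Mfge8* in 4 of 19. The causes were not tested. No paired analysis was possible because the labels give the mice no shared replicate numbers, litters or pairs. Depth limits *Timd4*, at 0 to 20 reads per mouse, and *Tyro3* most.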
